A study of Mus musculus with 20 samples.

Results

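The colony-stimulating factor receptor genes are described here through 7 genes: Csf1, which encodes the ligand M-CSF, and the receptor genes Csf1r, Flt3, Csf2ra, Csf2rb, Csf2rb2 and Csf3r. They were taken by name from the scRNA-seq tables, where 6 of them were among the 15855 genes of the cultured macrophages and all 7 among the 15333 genes of the tumor cells. Flt3 had no row in the culture table and is not analysed there. The scRNA-seq samples were 2 libraries of B-MF (macrophages from BM B cells) and 2 libraries of Mo-MF (macrophages from monocytes), both grown in conditioned medium of 4T1.2, a mouse breast cancer line. The other 4 libraries held cells labelled as macrophages from 4T1.2 tumors, which by the study's methods grew in BALB/c mice. The ATAC-seq samples were 3 libraries each of CSF1R+ and CSF1R- B-cell precursors (BMBP) from BM and from spleen of naïve mice. The labels call these precursors macrophages. The study's methods describe young female mice and take B cells for culture from C57BL/CJ or BALB/CJ mice. Which strain lay behind these culture libraries is not given. Nothing shows that the replicates of a group came from separate cultures, so p-values measure only the spread between these libraries.

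These genes carry the main signals for making and keeping myeloid cells. Csf1r is the receptor tyrosine kinase on which macrophages depend for survival, and it binds M-CSF and IL-34. Flt3, a kinase of the same family, serves early progenitors and dendritic cells. The GM-CSF receptor joins a ligand-binding chain (Csf2ra) to a signaling chain (Csf2rb) that the IL-3 and IL-5 receptors share, the mouse has a second beta chain (Csf2rb2) used for IL-3, and Csf3r is the G-CSF receptor of neutrophils.

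Libraries were first compared with their labels. In the cultures, all 9 macrophage markers had a mean of at least 0.1 corrected counts per cell in every library. Their summed means were 293 and 282 in B-MF against 607 and 598 in Mo-MF. Of 7 B-cell markers, 1 reached a mean of 0.1 in each B-MF library, with summed means of 0.536 and 0.490. In Mo-MF, 2 and 1 of the 7 did, with sums of 3.42 and 0.151, so the library of Mo-MF replicate 1 stood above the other 3 and the list did not separate the groups. Neutrophil markers (S100a8, Ngp and others) were at 0.1 or more for 10 of 10 genes in both Mo-MF libraries, with summed means of 165 and 129. In B-MF, 2 and 0 of the 10 were, the sums were 0.376 and 0.067, and 4 were at 0 in each library. Neutrophil-like clusters made up 10.3% and 9.52% of the Mo-MF cells against 3 cells and 0 cells of B-MF. In the tumor libraries, numbered 2 to 5 as in the deposited columns, 35.8% to 62.6% of cells were neutrophil-like and 30.3% to 54.7% monocyte/macrophage-like, although the label names macrophages. Libraries held 2318 to 5389 cells, each shared 3 to 28 barcodes with the other libraries of its table, and doublets were not called.

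Chromatin at the genes was read first in the precursors, to ask whether CSF1R+ and CSF1R- BMBP differ at the receptor genes. No region near any of the 7 genes had peaks in every library of one kind and none of the other in the same tissue. Of 101333 regions with a peak in any of the 12 libraries, 48 lay in or within 10000 bases of these genes. A peak in all 3 CSF1R+ and no CSF1R- BM library was seen at 0 of the 48, against 0.613% of all regions, and the opposite pattern at 0 against 0.503%. In spleen the counts were 0 for both, against 0.439% and 0.0336% of all regions. With 3 libraries against 3, an exact test cannot go below 0.1.

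The strength of peaks was compared where each of a tissue's 6 libraries had one, which held for 24 regions in BM and 18 in spleen. In BM, 1 of the 24 was higher in all CSF1R+ than in all CSF1R- libraries, against 2.1% of all such regions, and 1 was lower, against 18.4%. Both lay in Flt3. The higher one, in an intron at chr5:147351724-147352330, had 6.41, 9.05 and 6.87 against 5.68, 5.72 and 5.65, and the lower one, exonic at chr5:147340766-147341653, had 9.92, 9.80 and 9.79 against 11.7, 11.5 and 11.5. In spleen, 5 of the 18 were higher in CSF1R+, against 15.3% of all such regions, and 0 were lower, against 0.751%. These were 2 at Csf3r, 2 at Flt3 and 1 at Csf2rb. The Csf3r regions were upstream at chr4:126018716-126019493 (23.0, 22.5 and 20.1 against 19.4, 17.9 and 19.8) and downstream at chr4:126046711-126047516 (25.8, 26.4 and 25.1 against 22.8, 21.8 and 24.5). Each of the 7 had an exact p = 0.1, the smallest possible. Over all such regions more were higher in CSF1R- in BM and more in CSF1R+ in spleen. The spleen counts near these genes leaned that way, while those of BM were 1 and 1. The paper used another measure, regions tested by DESeq2. It reports more accessible chromatin in CSF1R+ than in CSF1R- cells of BM, and no significant region in spleen. For BM this is the other direction from the peak strengths, which cover only regions with a peak in all 6 libraries. Regions with peaks in all BM libraries of a single kind went the paper's way, at 0.613% for CSF1R+ and 0.503% for CSF1R-. Fold enrichments here were not scaled between libraries, and the reason for the difference was not tested.

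At Csf1r (chr18:61100598-61132149, plus strand, mm10), 9 regions were found. The region with the strongest peaks lay in an intron at chr18:61108152-61109063, with a peak in all 12 libraries. Its fold enrichment over local background was 11.9, 11.5 and 13.1 in CSF1R+ BM and 12.2, 13.9 and 11.2 in CSF1R- BM. In spleen it was 12.9, 12.9 and 10.8 in CSF1R+ and 10.2, 13.2 and 11.3 in CSF1R- cells. The groups overlapped in both tissues, with a difference of -0.20 in BM (exact permutation test, two-sided, p = 0.9, n = 3 each) and 0.60 in spleen (exact p = 0.7). Thus this intron held a peak in both CSF1R+ and CSF1R- cells. An exonic region at chr18:61105671-61106213 was open in each of the 6 BM libraries but in none from spleen, with fold enrichments from 6.93 to 9.17. This pattern held for 1 of the 48 regions against 11.2% of all regions, and its opposite, spleen without BM, for 0 against 2.01%. Exonic regions at chr18:61120622-61120886 and chr18:61131390-61131624 each had a peak in 2 CSF1R+ BM libraries and in no other library. Intronic regions at chr18:61126834-61126983 and chr18:61127669-61127851 leaned the other way, each open in 1 CSF1R- BM library only. An intronic region of Csf2rb2, at chr15:78299729-78299900, was open in 2 CSF1R- BM libraries only. Of the 9 Csf1r regions, 3 were open throughout CSF1R+ BM and 4 throughout CSF1R- BM. How common such partial patterns were over all regions was not tested. The spleen lists were shorter, with 43407 to 50392 peaks against 65832 to 76530 in BM, and the part of list length in these tissue patterns was not tested.

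By the outermost annotated start of each gene, promoters of 6 of the 7 genes held a peak in at least 1 library. No region covered that start of Csf1r, at chr18:61100598. Whether the exonic region at chr18:61105671-61106213 lies at another start of Csf1r was not examined. Flt3 had a promoter peak in all 12 libraries, with fold enrichments from 15.8 to 23.6, and 8 of its 14 regions were open in all 12. Csf1 had a promoter peak in all 12 libraries as well, from 11.3 to 15.5, and so did Csf2rb. The promoter of Csf3r had a peak in 2 of 3 CSF1R+ BM libraries (5.20 and 5.73), in 3 of 3 CSF1R- BM libraries (9.09, 4.81 and 7.77) and in no spleen library. The Csf2rb2 promoter had a peak in 1 CSF1R+ and 2 CSF1R- BM libraries, from 6.64 to 7.54, and in no spleen library. At Csf2ra, a peak at the start itself was present in 1 CSF1R- BM library, while the neighbouring region at chr19:61226115-61228048 was open in all 12. Csf3r and Csf2rb2 thus had promoter peaks in BM libraries of both kinds and in no spleen library. The share of all regions with such a partial pattern was not counted. The stricter pattern, a peak in all 6 BM and no spleen library, held for 11.2% of all regions, and the spleen lists were shorter.

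**Figure D1:**
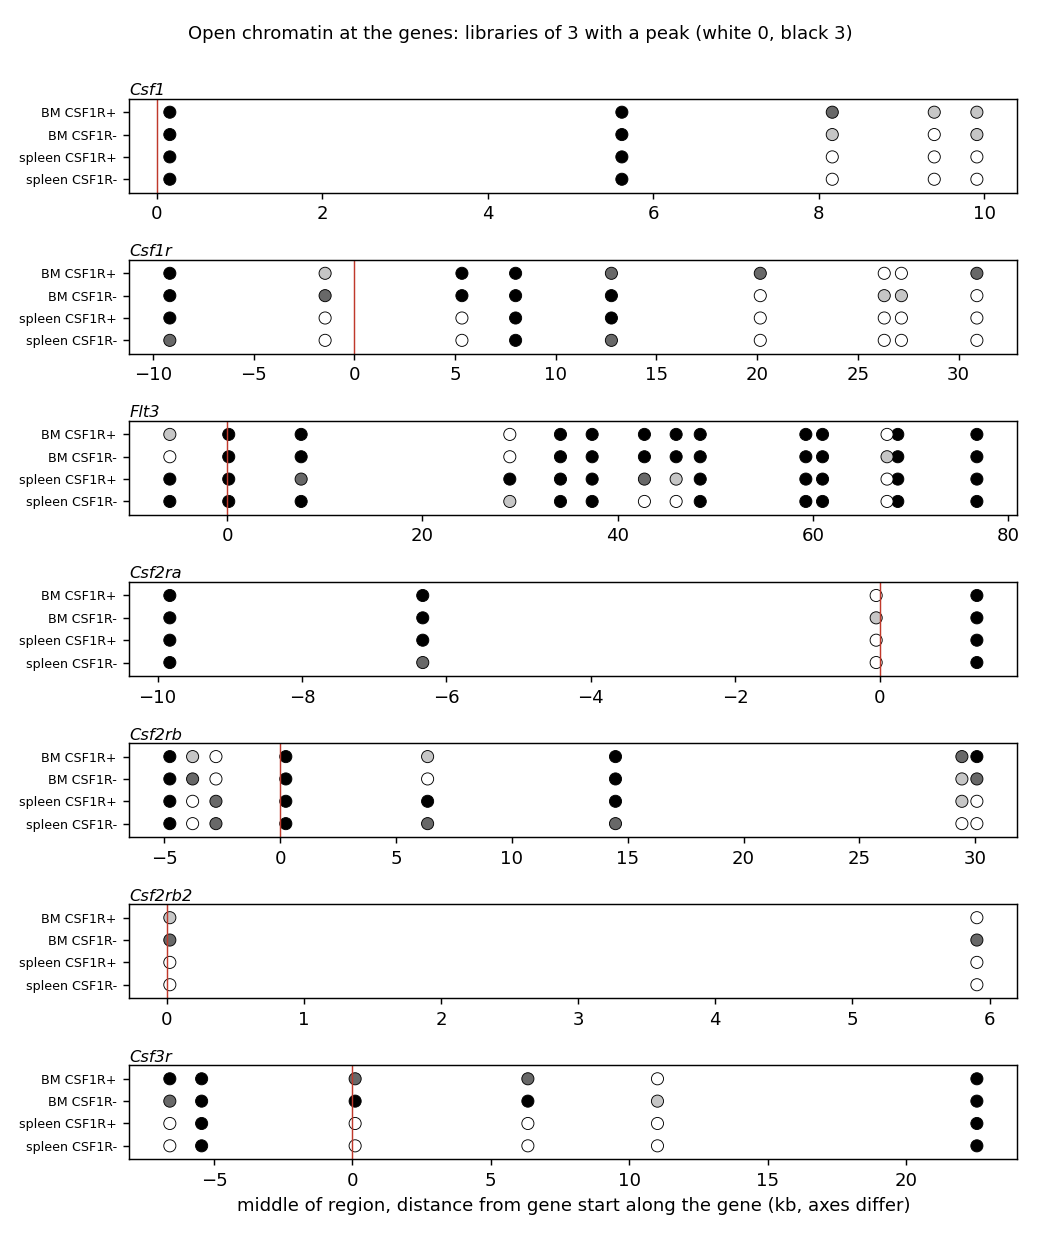
Regions of open chromatin at the 7 genes in BMBP. Each point is a region, placed by its distance in kb from the gene start, and its shade gives how many of the 3 libraries of a group had a peak (white 0, black 3). The red line marks the gene start, and no region was black in one CSF1R group and white in the other group of the same tissue.

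The 250 bases before the start are shown for the 2 promoters with peaks in 3 or more BM libraries and no spleen library and for 2 of those open in all libraries, as examples of both. The promoter peak of Csf2ra, in 1 BM library, is not among them. They are from RefSeq on GRCm38.p6 and run 5′ to 3′ along the gene. Promoters of 5 of the 7 genes were searched, without those of Csf1r and Csf2rb. Capitals mark matches on either strand to GAGGAA, a core bound by PU.1 and related ETS factors. Promoters at chr4:126024409-126024658 (plus strand, Csf3r), chr15:78305722-78305971 (minus strand, Csf2rb2), chr5:147400490-147400739 (minus strand, Flt3) and chr3:107760470-107760719 (minus strand, Csf1) read as follows.
Csf3r: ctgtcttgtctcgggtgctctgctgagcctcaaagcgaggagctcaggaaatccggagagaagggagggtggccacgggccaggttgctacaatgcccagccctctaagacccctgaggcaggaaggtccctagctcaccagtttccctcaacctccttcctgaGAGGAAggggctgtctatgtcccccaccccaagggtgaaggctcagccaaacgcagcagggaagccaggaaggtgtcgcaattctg
Csf2rb2: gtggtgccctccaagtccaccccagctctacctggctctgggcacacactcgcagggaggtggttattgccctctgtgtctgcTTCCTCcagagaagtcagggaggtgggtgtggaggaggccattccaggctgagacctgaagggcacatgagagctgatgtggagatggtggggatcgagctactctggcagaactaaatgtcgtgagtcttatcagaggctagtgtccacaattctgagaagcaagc
Flt3: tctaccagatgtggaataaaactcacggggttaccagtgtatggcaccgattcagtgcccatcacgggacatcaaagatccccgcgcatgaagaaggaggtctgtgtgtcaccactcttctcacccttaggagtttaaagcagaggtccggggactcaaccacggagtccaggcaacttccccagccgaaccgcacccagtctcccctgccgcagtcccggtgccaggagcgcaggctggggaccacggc
Csf1: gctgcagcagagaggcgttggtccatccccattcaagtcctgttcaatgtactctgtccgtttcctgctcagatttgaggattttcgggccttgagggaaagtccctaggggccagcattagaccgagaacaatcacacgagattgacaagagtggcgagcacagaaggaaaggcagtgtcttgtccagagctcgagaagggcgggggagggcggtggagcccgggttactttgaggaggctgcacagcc
Distances are from the RefSeq start, which for Csf3r lies 109 bases inside the gene as annotated for the regions above, and for Csf2ra 11 bases inside. Csf3r had 1 match, starting 86 bases before its RefSeq start and thus 23 bases after the annotated one, and Csf2rb2 had 1, at 167 bases. Flt3 and Csf1 had 0, and Csf2ra, at chr19:61228419-61228668, had 2, at 14 and 8 bases. The core occurred in 23.3% of 32851 promoter windows of this length. A C/EBP-type core (TTGCNNAA, in 9.56% of windows) and a RUNX-type core (TGTGGT, in 14.0%) were searched on both strands as well and were in none of the 5 promoters. No match overlapped another.

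In the cultured macrophages, the receptors of M-CSF and G-CSF differed in opposite directions between B-MF and Mo-MF. Values are means of corrected counts per cell, in which the authors adjusted each cell to a shared depth. Differences are on a log2 scale after adding 0.1, tested by limma over 8633 genes with Benjamini-Hochberg adjustment. Of the 6 genes, 2 were higher and 2 lower in B-MF. Over all genes tested 22.6% were higher, 16.9% lower and 39.5% changed in either direction, so that a change in itself was common.

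Csf1, the ligand gene, was low in both. The B-MF libraries had means of 0.357 and 0.339, against 0.155 and 0.125 for Mo-MF. B-MF were higher by 0.90 ± 0.07 on the log2 scale (SE, n = 2 each, limma, adjusted p = 2.28e-05). For this low gene the size depended on the pseudocount, with 1.26 at 0.01 and 0.24 at 1, and was 0.14 with log values averaged over cells. A fibroblast-like cluster of 26 cells, of which B-MF gave 15 and 10 and Mo-MF 0 and 1, had a Csf1 mean of 20.5. Without this cluster the log2 difference was 0.74 (limma, adjusted p = 8.16e-05). Neutrophil-like cells, nearly all in Mo-MF, had a Csf1 mean of 0.715. Without these the means were 0.347 and 0.0769, and the log2 difference was 1.34 (limma, adjusted p = 2.29e-06). A count of Csf1 was found in 17.1% and 15.1% of cells in the B-MF libraries, against 5.88% and 5.55% for Mo-MF.

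Csf1r, the receptor of that ligand, was also higher in B-MF. Its mean was 11.02 and 10.9 in B-MF against 5.87 and 5.66 in Mo-MF, a ratio of 1.90. The log2 difference was 0.91 ± 0.05 (SE, n = 2 each, limma, adjusted p = 4.43e-06). Nearly every cell of both kinds held a count, 99.6% in each B-MF library and 97.0% in each Mo-MF library. The difference thus lay in the amount per cell: cells with at least 2 counts were 99.0% in both B-MF libraries and 90.7% and 90.6% in Mo-MF. Within B-MF, the mean was 13.5 in the cluster led by Egr1 and Ier3 and 9.08 in that led by Myc and Cdkn2a. The 3 largest clusters that were mostly Mo-MF lay from 5.67 to 6.52. A monocyte/macrophage-like cluster led by Ccr2 and Vcan, whose 121 cells all came from Mo-MF, had a mean of 11.5.

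The GM-CSF receptor chains differed less than Csf1r. Csf2ra, the ligand-binding chain, had means of 1.14 and 1.15 in B-MF, below the 1.99 and 1.92 of Mo-MF. It was lower in B-MF by 1.70 times, with a log2 difference of -0.72 ± 0.05 (SE, n = 2 each, limma, adjusted p = 1.57e-05). Csf2rb, the signaling chain, had 6.20 and 6.30 in B-MF against 5.80 and 5.69 for Mo-MF, with a log2 difference of 0.12 ± 0.05 that did not pass the test (limma, adjusted p = 0.0909). Csf2rb2 was 2.13 and 2.16 against 2.40 and 2.33, with -0.13 ± 0.05 (limma, adjusted p = 0.0666). Both small differences passed under 8 of 13 alternative settings. Csf2rb and Csf2rb2 are near copies, with 26.2% and 29.0% of their 31-base words in common (17.5% and 9.77% within the last 1000 bases, where 3′ libraries read), and how their reads were divided was not tested.

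Csf3r, the G-CSF receptor, was lower in B-MF. The B-MF libraries had means of 0.705 and 0.660 against 2.38 and 2.16 for Mo-MF, 3.33 times lower. The log2 difference was -1.60 ± 0.06 (SE, n = 2 each, limma, adjusted p = 6.10e-07). Neutrophil-like cells, which were 499 and 513 cells of the Mo-MF libraries and 3 cells of B-MF, had a mean of 8.80. With the 2 neutrophil-like clusters left out the means were 0.680 and 1.55, and the log2 difference was -1.08 (limma, adjusted p = 3.26e-06). Csf3r was thus lower in B-MF with and without these cells. Cells with a count were 41.8% and 35.4% of B-MF, against 69.1% and 69.0% of Mo-MF.

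**Figure D2:**
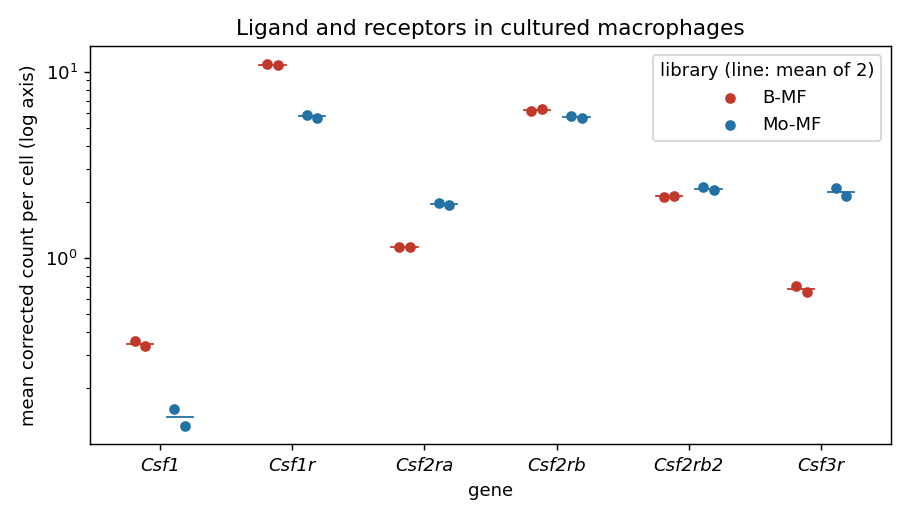
Mean corrected count per cell, on a log axis, of the 6 genes in the culture table. Each point is a library and each line the mean of 2 libraries. Csf1 and Csf1r lie higher in both B-MF libraries, Csf2ra and Csf3r higher in both Mo-MF libraries, and the points of Csf2rb and Csf2rb2 lie close together.

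Shares of cells with a count need care in the cultures. In 2 clusters with low corrected totals, 1 value recurred in many cells. In a cluster of 574 cells led by Igkc and Malat1, Csf2ra was exactly 1 in 424 cells (73.9%), and in a neutrophil-like cluster of 518 cells, Csf1r was exactly 3 in 206 (39.8%). Csf1r had a count in 98.1% of that neutrophil-like cluster, and the part of the correction in such shares was not tested. Thinning each cell to 10000 corrected counts gave shares with Csf3r of 26.6% in B-MF and 52.6% in Mo-MF, the same order as without thinning.

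The pathway around the receptors was followed in lists of genes, with all cells of each library. These cells included the neutrophil-like ones, nearly all in Mo-MF, and their part in the differences of the listed genes was not tested. The median log2 difference over all genes tested was 0.02, and the counts in each list are to be read against the 22.6% of all genes that were higher and the 16.9% that were lower. Of 7 further ligand genes listed, 2 could be tested and 1 was higher in B-MF: Kitl, the ligand of the receptor kinase Kit, at 0.352 and 0.329 against 0.123 and 0.109 (log2 difference 1.03, limma, adjusted p = 4.38e-06). Of 8 related receptors listed, 2 could be tested and both were lower in B-MF, against 16.9% of all genes. Il7r, the IL-7 receptor chain of early B cells, had means of 2.22 and 2.39 against 5.36 and 5.58 in Mo-MF (log2 difference -1.21, adjusted p = 1.63e-06), and Il3ra, the IL-3 receptor alpha chain, had a log2 difference of -0.35 (limma, adjusted p = 0.00114).

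Of 10 JAK-STAT genes, 1 was higher and 3 lower in B-MF, with a median of -0.05, and 39.5% of all genes changed in either direction. Mcl1, a survival gene, fell by 0.47 on the log2 scale, and Socs3, a feedback inhibitor of cytokine receptors, was higher by 0.43. Of 21 CSF1R adaptors, kinases and phosphatases, 5 were higher, 4 lower and 12 did not pass, a share of calls near the 39.5% of all genes, with a median of -0.06. The kinase Src was at 0.0258 and 0.0240 in B-MF against 0.206 and 0.210 in Mo-MF (log2 difference -1.30), and the adaptor Dok2 at 1.36 and 1.23 against 0.563 and 0.525 (log2 difference 1.12). Of 7 transcription factors tested, 2 were higher and 4 lower, against 22.6% and 16.9% of all genes, with a median of -0.21. Ets2 was higher by 1.11 on the log2 scale. Spi1, which encodes PU.1, was 6.35 and 6.26 against 6.68 and 6.55 and did not pass (limma, adjusted p = 0.319).

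In tumors, the same genes were read by class of cell. Cells were clustered without the 7 genes, and classes were named by other markers, so the levels below are a description, with no test. The tumor table was corrected apart from the culture table, so levels cannot be set across them. M-CSF and its receptor were highest in different classes. Csf1r was highest in osteoclast-like cells, with a mean of 5.93, 6.75, 5.62 and 3.92 in the 4 libraries, from 8 to 27 cells each. It was 2.14, 2.19, 2.13 and 1.99 in monocyte/macrophage-like cells and 0.373, 0.335, 0.329 and 0.335 in neutrophil-like cells. The log2 difference of neutrophil-like from monocyte/macrophage-like cells was -2.32 ± 0.08 (SD, n = 4 libraries), and the 2 classes did not overlap.

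Csf1 had the reverse order. Its mean in neutrophil-like cells was 2.49, 2.83, 2.80 and 2.73, and 0.433, 0.745, 0.657 and 0.535 in monocyte/macrophage-like cells, a log2 difference of 2.04 ± 0.22 (SD, n = 4). Among neutrophil-like clusters it ran from 3.50 in the largest, led by Ccdc126 and Ddit3, to 0.27 in the cluster led by the granule genes Ngp, Camp and Ltf. Csf1 was thus uneven within neutrophil-like cells by more than its spread between libraries, which was 3.08 to 3.90 in the former cluster and 0.22 to 0.31 in the latter. Fibroblast-like cells, known makers of M-CSF, numbered only 16, and 8 of them held a count.

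Csf3r marked the neutrophil-like cells. Its mean was 5.69, 5.81, 5.60 and 5.96 there and 0.850, 1.34, 1.29 and 1.26 in monocyte/macrophage-like cells, a log2 difference of 2.21 ± 0.27 (SD, n = 4). It was highest, at 8.96, in the cluster led by Steap4, Lrg1 and Cxcr2, and 5.68 in the granule gene cluster. No count of Csf3r was found in 69 osteoclast-like cells, which allows a share of cells with a count of up to 4.35%. Csf3r and Csf1 thus did not follow each other among neutrophil-like clusters: the cluster highest for Csf3r had a Csf1 mean of 1.47.

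The GM-CSF receptor chains were spread over both classes. Csf2ra had means of 1.48, 1.25, 1.22 and 1.28 in neutrophil-like and 1.22, 1.40, 1.31 and 1.25 in monocyte/macrophage-like cells, which overlapped (log2 difference 0.01 ± 0.19, SD, n = 4). Csf2rb was 4.40, 3.56, 4.17 and 4.14 against 4.66, 4.58, 4.89 and 5.40, a log2 difference of -0.26 ± 0.14. The classes did not overlap for Csf2rb, but the highest neutrophil-like value lay close to the lowest of the other class. Csf2rb2 was 0.430 to 0.445 in neutrophil-like cells and 0.696 to 0.778 in monocyte/macrophage-like cells, a log2 difference of -0.66 ± 0.05. At the coarser clustering resolution of 0.25 these differences were larger, at -0.40 for Csf2rb and -0.82 for Csf2rb2. There an osteoclast-like cluster of 856 cells was led by Ctsk, Acp5, C1qc, C1qa and C1qb. In the main clustering, cells led by C1qc, C1qa and C1qb belonged to the monocyte/macrophage-like class. The part of this change of cells in the larger differences was not tested. Within the latter class Csf2rb varied by cluster, with 6.45 in the cluster led by Thbs1 and Sdc1 and 1.55 in the cluster led by the complement genes C1qa, C1qb and C1qc. Osteoclast-like cells, where Csf1r was highest, had Csf2rb at 1.16 and Csf2rb2 at 0.058.

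Flt3 was found in few cells, 1.60% to 2.39% of each tumor library. Dendritic-like cells led by Fscn1 and Ccr7, 22 to 30 in each library, held most of it per cell, with means of 2.11, 1.46, 2.23 and 1.90 and a count in 80.8% of 104 cells (95% Clopper-Pearson interval from 71.9% to 87.8%). These cells had Csf1r in 2.88% and Csf2rb2 in 62.5%. An unnamed cluster of 471 cells led by MHC II genes had Flt3 in 14.2% and Csf1r in 77.1%, so it differed from the dendritic-like cells in both. In it the share with Flt3 was 7.51% in tumor library 2 and 18.4% to 25.0% in the others. B-like cells had a count in 6.58%. Flt3 was found in 1 of 5376 neutrophil-like cells and in 0 of 80 T/NK-like cells, which allows up to 3.75%.

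**Figure D3:**
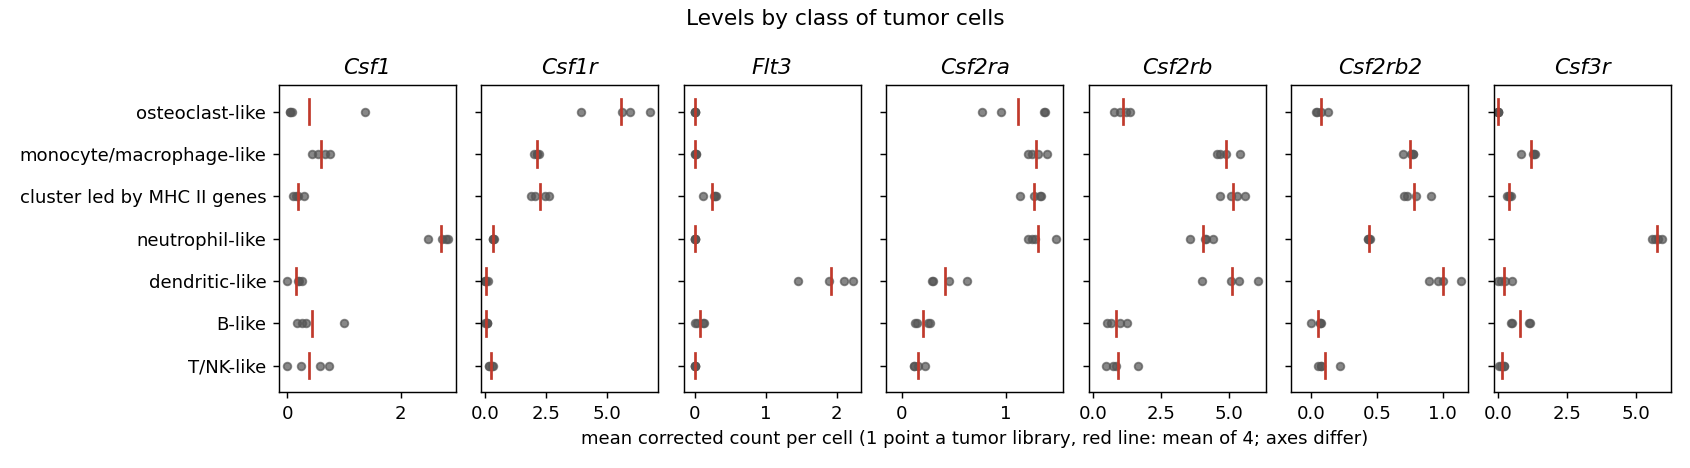
Mean corrected count per cell of the 7 genes in 7 classes of tumor cells, with a separate axis for each gene. Each point is 1 of the 4 tumor libraries and the red line is their mean. Of the classes shown, Csf1r is highest in osteoclast-like cells, Csf1 and Csf3r in neutrophil-like cells and Flt3 in dendritic-like cells. Csf2ra and Csf2rb are spread over the myeloid classes. The fibroblast-like cells and a cluster of cycling cells are not shown.

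Csf1r and Csf3r were then read together in single cells, to see how far they exclude each other. Exclusion was partial over the whole tumor. In tumor library 2, 34.0% of cells held Csf1r without Csf3r, 29.7% Csf3r without Csf1r, 24.9% both and 11.4% neither. The share with both was 25.0%, 25.7% and 24.4% in libraries 3, 4 and 5. Cells with both numbered 791, 580, 614 and 732, against 1022, 662, 744 and 870 if each gene fell independently of the other. The ratio of found to independent was 0.774, 0.875, 0.826 and 0.842, below 1 in 4 of 4 libraries. Counting only cells with at least 2 counts of a gene, the mean ratio over libraries was 0.660 in place of 0.83.

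Within a class the ratio was near or above 1. The mean ratio was 1.01 ± 0.02 (SD, n = 4 libraries) among monocyte/macrophage-like cells and 1.04 ± 0.02 among neutrophil-like cells. Since 91.1% of neutrophil-like cells held Csf3r, the ratio cannot rise far there. The odds ratio was 1.32, 3.39, 1.83 and 2.05 among neutrophil-like cells, above 1 in 4 of 4 libraries, and from 0.903 to 1.505 among monocyte/macrophage-like cells. Csf1r was counted in 19.3% of neutrophil-like cells (median 7500 corrected counts per cell). Its share was lower in B-like cells, at 5.35% (7525), and in T/NK-like cells, at 11.2% (8338.5). The paper reports CSF1R on some B-cell precursors, so B-like cells are not taken here as free of Csf1r. Csf3r was counted in 44.7% of monocyte/macrophage-like cells, against 7.50% of T/NK-like cells and 21.8% of B-like cells. The part of free RNA and of doublets in these shares was not tested. In the 4 culture libraries, where nearly every cell held Csf1r, the ratio was 1.002 to 1.007 and the odds ratio 1.52 to 5.62.

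Other pairs were read in the same way. Csf1r and Csf1 were found together less than independently in all 4 libraries, with ratios of 0.651, 0.722, 0.736 and 0.686. Within neutrophil-like cells this ratio was still below 1 in all 4, at 0.878 to 0.944, and within monocyte/macrophage-like cells it was 0.915 to 1.001. Csf3r and Csf1 were found together more often, at 1.52, 1.20, 1.29 and 1.27. This pair kept an excess within monocyte/macrophage-like cells, at 1.87, 1.56, 1.58 and 1.63, while within neutrophil-like cells the mean ratio was 0.994 and the odds ratio 0.771 to 1.03. In library 2, 187 of 1738 monocyte/macrophage-like cells held both. Csf3r and Csf1 were both higher in neutrophil-like cells. The part of free RNA and of doublets in the excess within monocyte/macrophage-like cells was not tested. Flt3 was found with Csf3r at a mean ratio of 0.257 and with Csf1r at 0.605 over the whole tumor. Within monocyte/macrophage-like cells, of which 0.984% held Flt3, these ratios were nearer to 1, at 0.882 (0.790 to 0.948 over libraries) with Csf3r and 1.09 (0.997 to 1.23) with Csf1r. The chains of one receptor, Csf2ra and Csf2rb, were at 1.02 to 1.06, and Csf2rb with Csf2rb2 at 1.07 to 1.11. As most cells held Csf2rb, these ratios cannot rise far, and the odds ratios were 1.52 to 2.45 and 2.31 to 5.18.

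**Figure D4:**
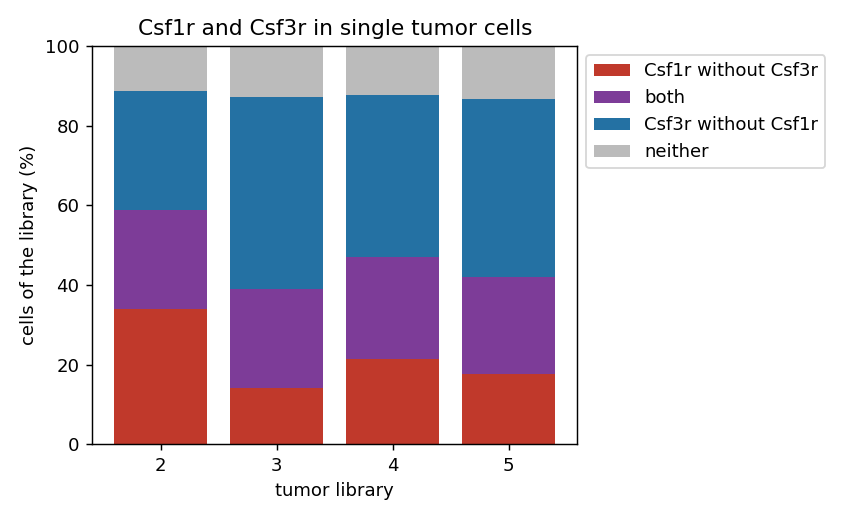
Share of cells of each tumor library, in percent, with a count of Csf1r without Csf3r, of both, of Csf3r without Csf1r and of neither. The share with both stays between 24.4% and 25.7%, while the parts with a single receptor change from library to library.

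**Figure D5:**
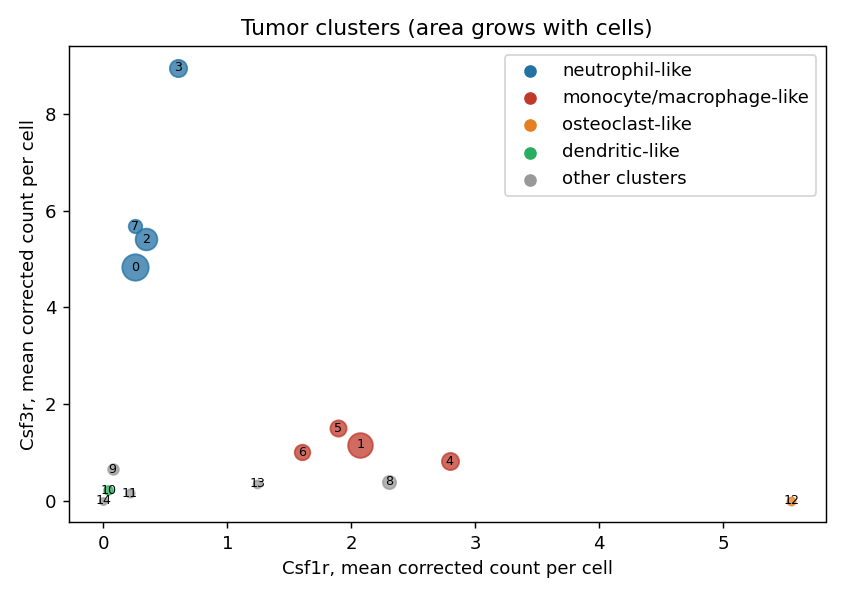
Mean corrected count per cell of Csf1r (horizontal) and Csf3r (vertical) in the 15 tumor clusters, each a numbered circle whose area grows with its cells and whose color gives its class. Neutrophil-like clusters lie along the vertical axis up to 8.96, the osteoclast-like cluster at 5.55 on the horizontal axis, and monocyte/macrophage-like clusters between.

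The make-up of each library moved with its levels. Tumor library 2, with 54.7% monocyte/macrophage-like and 35.8% neutrophil-like cells, had the highest mean of Csf1r over all cells (1.53, against 0.962, 1.19 and 0.970) and the lowest of Csf3r (2.53, against 4.09, 3.21 and 3.78) and Csf1 (1.14, against 2.01, 1.63 and 1.72). Csf2rb differed less, at 4.51, 3.84, 4.34 and 4.44, and Csf2ra least, from 1.20 to 1.30.

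The genes with the most similar profile were taken over the 10 tumor clusters that held at least 10 cells in every library, by Pearson's r of log2 means, as a description over points that share libraries. For Csf1r they were Asah1 (0.99), March1 (0.98) and Ctsa (0.97), a lysosomal ceramidase, a ubiquitin ligase that acts on MHC II and a lysosomal protease. For Csf3r they were Hcst (0.98), Selenon (0.98) and Trem1 (0.98), and for Csf2ra Ncf4 (0.98) and Tyrobp (0.98). Csf2rb went with Pde4b (0.95), Crem (0.94) and Chd7 (0.90), and Csf2rb2 with Cyth2 (0.93), Nr2c2 (0.91) and Tmod3 (0.90). Csf1 went with the immediate-early gene Egr1 (0.98), E230032D23Rik (0.98) and Spidr (0.97). Flt3 was below the level at which a profile was compared.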

How the data were processed

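The authors counted scRNA-seq transcripts with Cell Ranger 5.0 from 10x 3′ libraries, set a minimum of 1000 genes per cell, applied SCTransform and deposited its corrected counts as the natural log (ln) of 1 plus the value. All values converted back to whole numbers (relative tolerance 1e-04). As these are not raw counts and their depth is unknown, no count model was fitted. Library means were compared by limma on log2(mean + 0.1) over genes averaging 0.1 or more, libraries being the replicates. The fit was tested on simulated data with planted changes and independent noise, which cannot show whether these libraries are independent replicates.

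For ATAC-seq, the authors trimmed with cutadapt, aligned to mm10 with BWA and called peaks per library with MACS2. The deposited lists give the fold enrichment as a ratio, and the −log10 of p-values and q-values, of which the deposited −log10 q was used for 1 alternative. Peaks sharing at least 1 base were merged. Read depth per library is unknown, and the union list was not used.

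Samples were grouped by their labels. Deposited tumor columns could not be matched to single labels. Cells were clustered without the 7 genes (2000 variable genes, 30 components, 20 neighbors, Leiden resolution 0.5) and named by marker lists. No doublet caller was run. Members and lists were chosen with earlier results of these data known. Named were the 7 genes, the 2 largest changes past the threshold in each pathway list (with Spi1 added afterwards) and the 3 most similar profiles of each gene, apart from some that are not reported here. Shares have exact binomial intervals, and intervals and limits cover counting error only. Alternatives changed the pseudocount, filter, scaling, cells, thinning, resolution, peak rules, replicate block and replicates; leaving out the fibroblast-like cluster was added after seeing the data. Tools were limma 3.58.1 (R 4.3.3), leidenalg 0.10.2, igraph 0.11.9, scikit-learn 1.9.0, scipy 1.17.1, numpy 2.4.6, matplotlib 3.10.9 and pandas 2.3.3 (Python 3.11.15).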

Additional observations from a re-analysis of the deposited data

Results flagged for a closer look

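Of 20 values compared over the 4 tumor libraries, 2 had a library farther from the others than Dixon's test allows at the 95% level, which happens by chance in about 1 in 20 sets of values. Csf1r in neutrophil-like cells had a mean of 0.373 in tumor library 2 and 0.329 to 0.335 in the others. Csf3r in monocyte/macrophage-like cells had a mean of 0.850 in tumor library 2 and 1.26 to 1.34 in the others. Tumor library 2 also had the largest share of monocyte/macrophage-like cells, and the part of this in both values was not tested.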

How the results depend on the processing

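The log2 differences of Csf1r, Csf2ra, Csf3r and Csf1 kept their direction and passed the limma test under every alternative that gave a value (12 for Csf1, which a filter at 0.5 removes, and 13 for the others). With a pseudocount of 1 they were 0.82, -0.46, -0.96 and 0.24, and with log values averaged over cells 0.91, -0.45, -0.71 and 0.14. Csf2rb passed under 8 of 13 and Csf2rb2 under 8 of 13. Their log2 differences were 0.10 and -0.10 with a pseudocount of 1, and 0.12 and -0.13 without a filter or with a filter at 0.5. They were 0.13 and -0.13 with libraries scaled to the same total, and 0.12 and -0.11 with log values averaged over cells. Without the neutrophil-like clusters they were 0.16 and -0.17. Leaving out 1 culture library moved Csf2rb from 0.11 to 0.13, Csf2rb2 from -0.16 to -0.11, genes higher in B-MF from 1112 to 3855 and genes lower from 863 to 2950. Without B-MF replicate 2 the genes higher were 3855, without Mo-MF replicates 1 and 2 they were 1128 and 1112; without B-MF replicate 1 the genes lower were 2950 and without Mo-MF replicate 1 they were 863. The filter at 0.5 left 951 genes lower. In such fits the lone library is assumed to vary like the other group.

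The labels give a replicate number but not what it marks, and with 2 pairs the correlation of deviations was 0.126. With the replicate number as a block, 2238 genes were higher and 1670 lower, and no call on the 6 genes changed.

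The Csf1r and Csf3r ratio of 0.83 in tumor cells was 0.66 from 2 counts and 0.78 when cells were thinned to 5000 corrected counts. It turned to 1.01 within monocyte/macrophage-like and 1.04 within neutrophil-like cells, where the classes no longer differ by construction, and ranged from 0.814 to 0.848 with 1 library left out. The Csf3r and Csf1 ratio turned to 0.994 within neutrophil-like cells. At clustering resolutions of 0.25 and 1 the log2 differences of neutrophil-like from monocyte/macrophage-like cells were -2.39 and -2.28 for Csf1r, 2.31 and 2.17 for Csf3r, 2.21 and 1.99 for Csf1, -0.40 and -0.25 for Csf2rb, and -0.82 and -0.66 for Csf2rb2. That of Csf2ra, near 0, was -0.05 and 0.03. At 0.25 the monocyte/macrophage-like class lacked a cluster led by Ctsk, Acp5 and C1qc, so it held other cells than in the main clustering. Of 50 alternative shares of positive cells, 41 moved by more than the spread between libraries, which in each culture group was that of 2 libraries. Most of these alternatives counted cells from 2 counts or thinned them. Both can only lower a share, so this number does not measure how stable the shares are. Regions near the genes with peaks in all CSF1R+ and no CSF1R- libraries, or the reverse, numbered 0 or 1 in each tissue with 1 library left out, and 1 in spleen where a peak had to cover 50% of the region. Neither depth per library nor raw counts were at hand, so low levels such as that of Flt3 are limited to the shares of cells given.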
